A study of Mus musculus with 36 samples.

Results

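The clustered replication-dependent histone genes are the multicopy genes that code for the linker histone H1 and the core histones H2A, H2B, H3 and H4. They were chosen by symbol, taking every mouse gene named Hist1h to Hist4h or by the newer equivalent, with a mean of at least 1 CPM, the read count scaled to library size, over all libraries. The count table held 49671 genes, of which 68 carried such a symbol, and 57 of these reached the minimum. The 11 others lay under it, and 5 of them (Hist2h2aa1, Hist2h2aa2, Hist2h2bb, Hist2h3b and Hist2h3c1) had no count in any library. The member just inside the minimum was Hist1h4m at 1.44 CPM and the gene just outside was Hist1h2ba at 0.969 CPM. All 57 members passed the filter on low counts used for the tests, which kept 17702 genes. The members comprised 6 genes for H1, 15 for H2A, 13 for H2B, 10 for H3 and 13 for H4. Near-identical copies share reads, so the value of a single copy is uncertain wherever its sequence is repeated in another gene.

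RNA was measured in 36 libraries from wild-type mouse embryonic stem cells of 1 line, whose strain is labelled 129m wt, all grown in serum. The cells were kept on StemBond hydrogels, soft or stiff, made of polyacrylamide with tethered fibronectin, or on tissue culture plastic. With LIF, the cytokine that sustains self-renewal, there were 3 libraries on soft and 3 on stiff gels at 24 h, and 3 each on soft gels, stiff gels and plastic at 48 h. At 48 h there were also 3 soft and 3 stiff libraries in serum alone, 3 and 3 in serum + LIF + PD03, and 6 soft and 3 stiff in serum + PD03. PD03 is an inhibitor of MEK, the kinase that activates ERK. The labels do not say whether libraries of a group came from separate cultures, so that the p-values measure the spread between these libraries, which may be technical. Library numbers below are names only and pair nothing.

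Totals ranged from 10405696 to 26635239 counts per library, and the members held between 0.451% and 0.740% of them. The stem cell marker Pou5f1 stood at 474 to 695 CPM in every library. Of the other stem cell markers listed, Sox2, Zfp42, Esrrb and Tdgf1 lay at 231 CPM or more in every library. Nanog and Utf1 varied more, at 168 to 903 CPM and 96.0 to 616 CPM. The labels place all 24 h and plastic libraries, and 1 of the 3 stiff libraries in serum + LIF at 48 h, in the first of 3 sequencing pools. The other stiff libraries at 48 h and 2 of the 6 soft libraries in serum + PD03 were in the second pool, and the remaining soft libraries at 48 h in the third. At 48 h substrate and pool therefore coincided in nearly all libraries, and the columns of the count table do not show which library of a mixed group came from which pool.

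Replication-dependent histone genes supply the histones that package newly made DNA, and their transcripts accumulate while DNA is replicated and are degraded when replication ends. Most have no introns, and their mRNAs end in a short stem-loop rather than a poly(A) tail. The stem-loop binding protein Slbp and the U7 snRNP direct the cut behind the stem-loop, while NPAT, a target of cyclin E and its kinase, drives transcription at the gene clusters. Embryonic stem cells divide rapidly and spend much of their cycle in S phase. In RNA from whole cultures, fewer cells in S phase and less histone RNA per cell cannot be told apart.

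The stem-loop letters are shown because they are the feature that the mRNAs of all 5 classes share. The stem-loop was searched as a consensus of 16 bases, with 6 bases in each arm and 4 in the loop. Letters were set at some positions of both arms and of the loop, and any base was allowed at the others. Pairing of the arms was not required. A match was found in annotated transcripts of 38 of the 57 members, against 82 of 55450 genes in GENCODE M21 (0.148%). The capitals mark both arms of the stem.
The form in 20 members of H1, H2A, H2B and H3: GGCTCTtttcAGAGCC
The form in 6 members of H1, H2B and H3: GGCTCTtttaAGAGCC
The form in 7 members of H4: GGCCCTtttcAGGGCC
The form in 2 other members of H4: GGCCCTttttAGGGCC
The last 3 forms occurred in 1 member each, namely Hist1h4a, Hist1h3g and Hist2h2ac, and differed from these only in the loop.
Hist1h4a: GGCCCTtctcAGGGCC
Hist1h3g: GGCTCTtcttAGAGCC
Hist2h2ac: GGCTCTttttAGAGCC
No H4 member carried the stem of the other classes. In the 19 members without a match, the letters were not in the annotated transcript.

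Promoters are shown for the member with the deepest fall under PD03, the member that rose under PD03, the H1 gene with the highest level, the H2A gene that fell most, and an H4 gene that sat at separate levels among libraries. RefSeq start sites (GRCm38.p6) matched 51 members. The 150 bases before the start are printed, 5′ to 3′ on the strand of the gene, with capitals where the TATA box was found as TATAAA, the CCAAT box as its own letters or the octamer as ATTTGCAT, each searched on both strands.
Hist3h2ba (chr11:58948761-58948910, plus strand): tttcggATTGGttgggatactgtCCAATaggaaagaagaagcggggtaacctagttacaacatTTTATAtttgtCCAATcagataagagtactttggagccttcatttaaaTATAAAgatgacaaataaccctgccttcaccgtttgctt
Hist1h1c (chr13:23738657-23738806, plus strand): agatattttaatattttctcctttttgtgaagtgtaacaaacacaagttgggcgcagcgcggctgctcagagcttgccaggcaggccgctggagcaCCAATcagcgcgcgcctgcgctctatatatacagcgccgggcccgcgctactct
Hist1h1e (chr13:23622559-23622708, minus strand): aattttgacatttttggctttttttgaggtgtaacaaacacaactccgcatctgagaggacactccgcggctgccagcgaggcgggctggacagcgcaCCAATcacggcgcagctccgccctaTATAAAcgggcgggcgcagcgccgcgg
Hist1h2aa (chr13:23934287-23934436, plus strand): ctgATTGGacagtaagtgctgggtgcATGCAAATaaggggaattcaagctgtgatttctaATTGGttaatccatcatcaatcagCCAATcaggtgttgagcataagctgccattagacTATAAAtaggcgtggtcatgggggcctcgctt
Hist1h4h (chr13:23530894-23531043, plus strand): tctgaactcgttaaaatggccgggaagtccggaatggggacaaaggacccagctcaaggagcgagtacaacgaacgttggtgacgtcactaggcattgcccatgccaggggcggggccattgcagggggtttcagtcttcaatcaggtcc
Over windows from 250 bases before to 50 bases after the start, TATAAA was present in 32 of the 51 members (62.7%), against 13.6% of 32851 mouse promoters of the same length. CCAAT was present in 42 (82.4%), against 37.4%, and these were every matched H1, H2A, H2B and H3 gene but only 3 of 12 H4 genes. The octamer, a site known to bind the POU factors, was in 9 members (17.6%), against 1.74%, and these were 6 of 14 H2A genes and 3 of 11 H2B genes. In the windows of the 51 members, matches to different motifs overlapped in 0 windows. Divergent H2A and H2B genes also share promoter sequence, so that their windows are not independent. A match of letters is a description and not a measured binding site.

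In the genome, 51 members lay on chromosome 13, 3 on chromosome 3, 2 on chromosome 11 and 1 on chromosome 6 (GRCm38). On chromosome 13, 16 members stood between 21715763 and 21833507, 5 between 22035164 and 22043676, and 29 between 23531050 and 23934851, while Hist1h2al, annotated as a processed pseudogene, stood apart at 51202727 to 51203065. An annotation as processed pseudogene also applies to Hist3h2bb-ps on chromosome 11. A single exon was annotated for 53 members, and 9 pairs of H2A and H2B genes were divergent with at most 500 bases between them. All 15 H2A members overlap annotated miRNA genes on the opposite strand, which held 0 to 4 counts in total. Hist1h1e overlaps Hist1h2be on the same strand and Hist1h4b overlaps the antisense gene 4930558J22Rik. Windows of 50 bases in a member's transcripts were called unique if found in no other gene, leaving out genes whose exons overlap the member. Fewer than 50% were unique in this sense for 27 members and at least 90% for 10 members. The overlapping pair Hist1h1e and Hist1h2be, at 91.8% and 93.7%, is among these 10. Hist1h1a, Hist1h1b and Hist1h1t were unique throughout, while Hist1h2bq was unique in only 2.68% of its windows. Whether the authors' counting dropped or split reads with several matches was not given in the sources used here.

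H4 genes held 35.7% of the members' summed CPM, H1 genes 18.6%, H2A genes 16.1%, H3 genes 15.985% and H2B genes 13.7%. Per kilobase of exon, the H2A gene Hist1h2ak (chr13:21753435-21753827) had a mean level of 798 CPM per kb and the H4 gene Hist1h4a (chr13:23760692-23761230) 725 CPM per kb. The H4 genes Hist1h4h and Hist1h4d followed with levels of 541 and 502 CPM per kb. The linker histone gene Hist1h1e (chr13:23620629-23622558) had 191 CPM per kb and the H3 gene Hist1h3f (chr13:23544052-23545312) 188 CPM per kb.

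Hist1h4h, an H4 gene at chr13:23531050-23531519 on the plus strand, stood at separate levels among libraries of the same group. In 11 libraries it lay between 36.5 and 61.4 CPM with a median of 46.7, and in the other 25 between 244 and 487 CPM with a median of 333. Both levels occurred in 9 of the 11 groups, and all libraries on plastic and on soft gels in serum + LIF at 48 h were at the upper level. The median over groups of the highest divided by the lowest library was 7.60 for this gene, against 1.21 over the members and 1.07 over the 2286 genes with a mean of at least 100 CPM. Hist1h4h alone among those 2286 genes had a median ratio above 2. The low libraries held 620 to 1440 Hist1h4h counts and the high libraries 3256 to 7604. Total counts overlapped between the low and the high libraries, and so did the sum of all other members, at 4462 to 6177 CPM against 4427 to 7199 CPM. Of the 50-base windows of Hist1h4h 54.2% were unique, and most of the others were shared with Hist1h4j. The H3 gene Hist1h3c (chr13:23744973-23745602) also sat at separate levels, between 40.2 and 61.2 CPM in 8 libraries and between 12.5 and 23.4 CPM in 28, and none of the 8 was among the 11 libraries with low Hist1h4h. Hist1h4d stood at 284 CPM in library 3 of soft serum + LIF + PD03 and 326 CPM in library 2 of soft serum, against 451 to 758 CPM elsewhere. These 3 genes were singled out after their values were seen, and sums over H4 genes or over all members are therefore given with and without Hist1h4h.

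**Figure D1:**
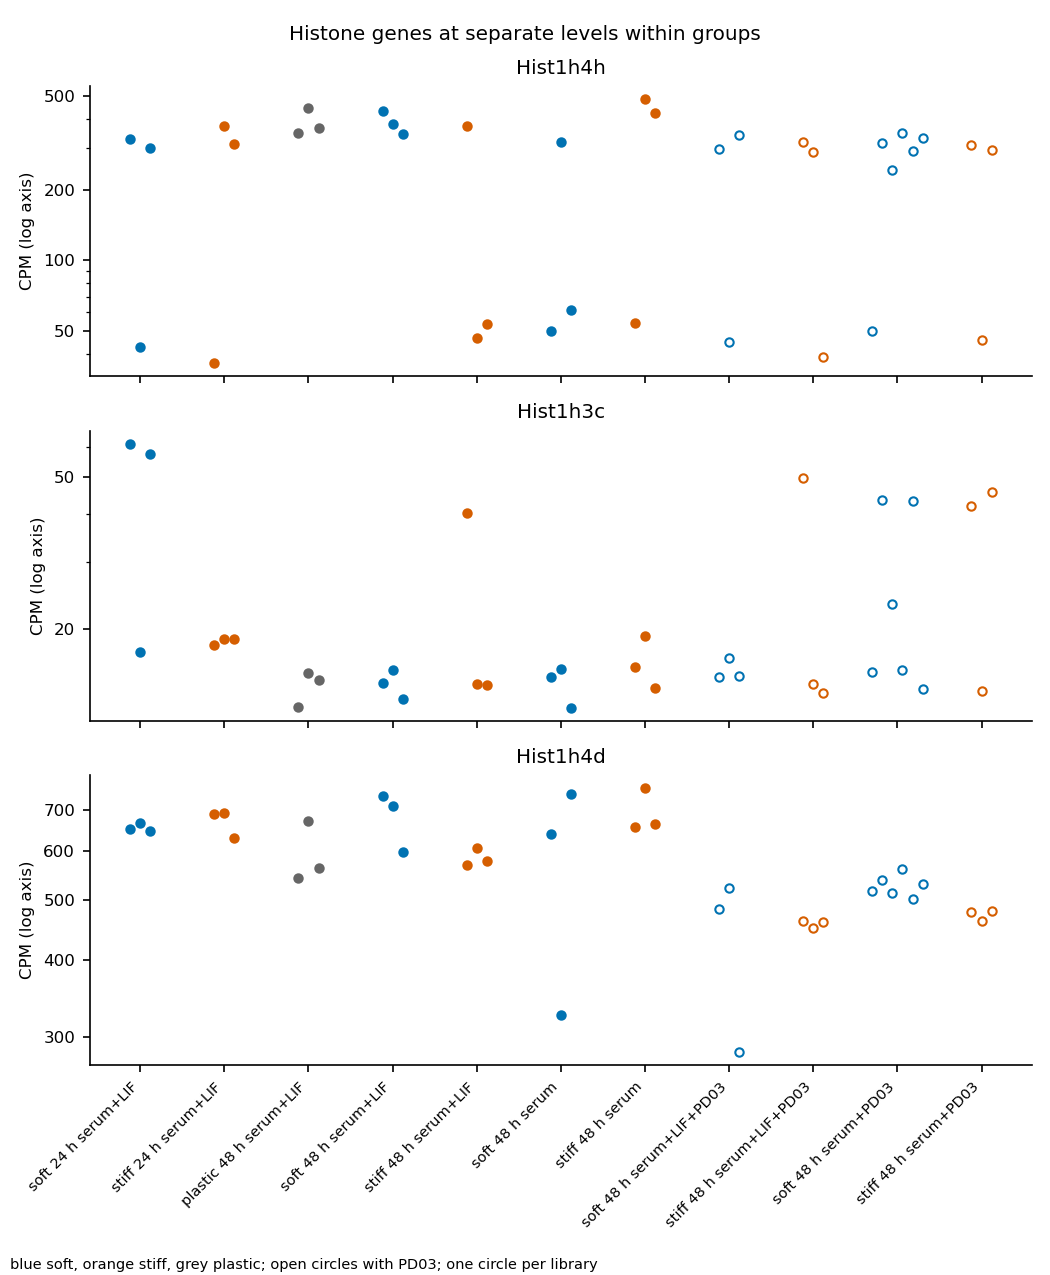
CPM on a log axis of Hist1h4h, Hist1h3c and Hist1h4d in every library (circles) of the 11 groups, in blue for soft, orange for stiff and grey for plastic, open with PD03. Hist1h4h fell near 46.7 CPM in 11 libraries and near 333 CPM in 25, within the same groups.

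Inhibition of MEK moved the members mainly downwards. With PD03, 27 members fell and 2 rose on soft gels with LIF, 20 fell and 6 rose on soft gels without LIF, 29 fell and 1 rose on stiff gels with LIF, and 34 fell and 2 rose on stiff gels without LIF (edgeR quasi-likelihood test, adjusted p below 0.05 over 17702 genes). Over all tested genes, in the same order, 26.6%, 28.5%, 27.8% and 27.4% fell and 27.8%, 29%, 28.3% and 28.4% rose. The median log2 fold change of the members was −0.31, −0.13, −0.32 and −0.44, while that of all genes lay between −0.01 and 0.01. The share of members called (50.9%, 45.6%, 52.6% and 63.2%) was thus near that of all genes (54.4%, 57.5%, 56.2% and 55.8%), and the calls of the members lay mainly on the lower side. The 4 comparisons share no library, and 17 members (29.8%) fell in all 4, against 19.9% of all genes. Only Hist1h1c rose in all 4, which is 1.75% of the members against 21.5% of all genes, and 12 members (21.1%) were called in none, against 27% of all genes. With a pool term over the 45 possible assignments, 29 to 31, 22 to 30, 25 to 33 and 36 members were called, and all libraries were in 1 pool on soft gels with LIF and on stiff gels without LIF.

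**Figure D2:**
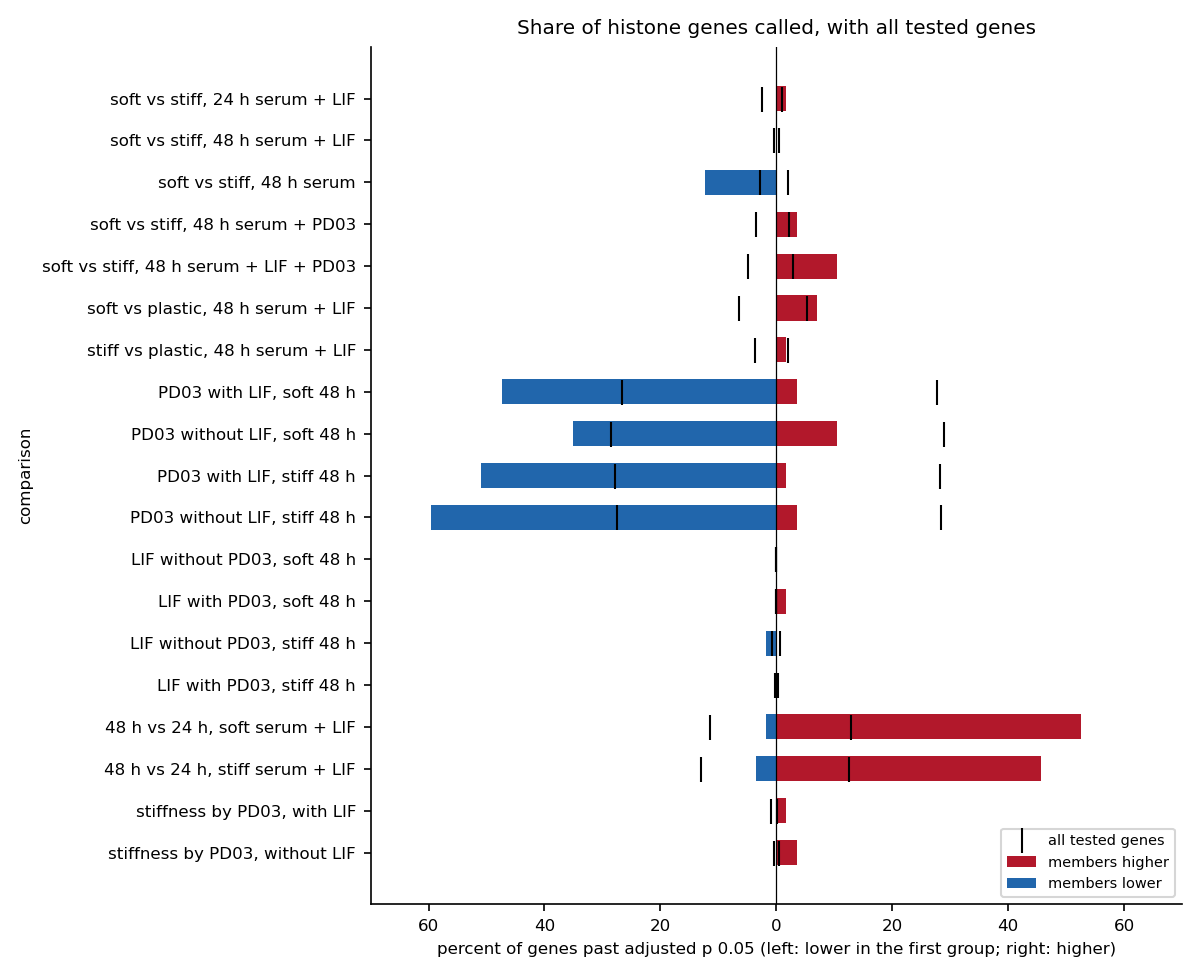
Percent of the 57 histone genes past an adjusted p of 0.05 in each of the comparisons, with genes higher in the first group to the right (red) and lower to the left (blue). The tick marks give the percent of all 17702 tested genes in the same direction, which reached 26.6% to 29% under PD03.

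Linker histone genes showed opposite directions within their class. Hist1h1e, which codes for a main linker histone, stood at 495, 519 and 425 CPM on soft gels in serum + LIF and at 244, 241 and 264 CPM with PD03. On stiff gels it stood at 427, 458 and 438 CPM in serum + LIF and at 267, 264 and 262 CPM with PD03. Without LIF it stood at 474, 404 and 437 CPM on soft gels against 233 to 265 CPM (median 249, 6 libraries) with PD03, and at 472, 590 and 472 CPM on stiff gels against 261, 262 and 250 CPM. No library with PD03 reached the lowest library without it. The log2 fold change of Hist1h1e was −0.94 ± 0.07 (SE; edgeR adjusted p = 1.01e-16) on soft gels with LIF and −0.81 ± 0.06 without, and −0.74 ± 0.07 and −0.98 ± 0.07 on stiff gels. Hist1h1c (chr13:23738808-23740367), the other abundant linker histone gene, stood at 214, 230 and 192 CPM on soft gels with LIF and at 301, 337 and 279 CPM once PD03 was added. On stiff gels with LIF its levels were 219, 220 and 225 CPM against 276, 305 and 317 CPM with PD03. Without LIF its levels were 189, 192 and 215 CPM against 279 to 413 CPM (median 308) on soft gels and 242, 274 and 232 CPM against 309, 295 and 319 CPM on stiff gels. The groups did not overlap, and Hist1h1c rose by a log2 fold change of 0.53 ± 0.09 (edgeR adjusted p = 2.38e-06), 0.69 ± 0.08, 0.43 ± 0.09 and 0.30 ± 0.09 in the order above for members. Hist1h1a and Hist1h1b fell in all 4 comparisons, by log2 fold changes of −0.19 to −0.48 and −0.37 to −0.67. The testis H1 gene Hist1h1t fell as well, from 2.88 to 4.38 CPM in the 12 libraries without PD03 on gels at 48 h to 0.641 to 3.04 CPM in the 15 with it, and these ranges overlapped. Hist1h1d, the remaining H1 gene, passed the test only on stiff gels without LIF, at a log2 fold change of −0.22 ± 0.07, and its log2 fold changes elsewhere were −0.01, 0.06 and −0.11.

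The deepest falls were found outside the large chromosome 13 blocks or at their edge, in genes of low level. The H2B gene Hist3h2ba (chr11:58948920-58949533) stood at 20.4, 23.6 and 17.3 CPM on soft gels in serum + LIF and at 4.47, 4.09 and 5.45 CPM with PD03. On stiff gels it stood at 19.98, 20.2 and 23.2 CPM and at 4.97, 4.77 and 4.06 CPM with PD03. In serum alone it stood at 20.3, 15.9 and 21.4 CPM on soft gels and 26.4, 31.2 and 24.4 CPM on stiff gels, and with PD03 at 3.58 to 4.93 CPM (median 4.37) and 3.65, 5.48 and 4.43 CPM. The groups were separated by a wide gap on both gels. Its log2 fold change was −2.13 ± 0.15 (edgeR adjusted p = 5.13e-17), −2.11 ± 0.13, −2.21 ± 0.15 and −2.56 ± 0.15. The adjacent pseudogene Hist3h2bb-ps (chr11:58954048-58954512) fell alongside it, by −1.96 ± 0.17, −1.78 ± 0.14, −1.81 ± 0.16 and −2.19 ± 0.16 on the log2 scale.

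Hist1h2aa (chr13:23934462-23934851), which codes for the testis-type H2A and lies at the end of the third chromosome 13 block, stood at 4.83, 4.89 and 3.79 CPM on soft gels with LIF and 1.26, 1.25 and 1.36 CPM with PD03. Its log2 fold changes were −1.80 ± 0.25 (edgeR adjusted p = 2.11e-08), −1.54 ± 0.20, −1.64 ± 0.26 and −2.28 ± 0.25. Among the abundant H2A genes, Hist2h2ac (chr3:96220361-96220880) stood at 229, 195 and 172 CPM on soft gels with LIF and 97.7, 115 and 101 CPM with PD03. Hist2h2ac fell in all 4 comparisons, by −0.93 ± 0.13, −1.05 ± 0.11, −1.13 ± 0.13 and −1.05 ± 0.13 on the log2 scale. Hist1h2ak, the H2A gene with the highest level, stood at 422, 382 and 304 CPM on soft gels with LIF and 261, 271 and 359 CPM with PD03, so that its libraries overlapped. It passed the test in 3 comparisons, at log2 fold changes of −0.32 ± 0.11 on soft gels with LIF, −0.32 ± 0.12 on stiff gels with LIF and −0.62 ± 0.12 on stiff gels without LIF, and stood at −0.06 ± 0.10 on soft gels without LIF.

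Hist1h2bg, the H2B gene with the highest mean CPM, was called lower with PD03 in none of the 4 comparisons. It stood at 179, 191 and 166 CPM on soft gels with LIF and 176, 187 and 161 CPM with PD03, at a log2 fold change of −0.03 ± 0.11. It rose only on soft gels without LIF, from 142, 129 and 136 CPM to 153 to 212 CPM (median 174), at 0.40 ± 0.10, and Hist1h2bb rose there by 0.61 ± 0.16. Both were also higher there without library 3 of soft serum + PD03, where the log2 fold changes were 0.35 for Hist1h2bg, 0.32 for Hist1h2bb and 0.60 for Hist1h1c. Hist1h2bc (chr13:23684199-23692908), the H2B gene next in level, stood at 148, 155 and 140 CPM on soft gels with LIF and 142, 173 and 124 CPM with PD03, which overlapped. It rose on soft gels without LIF, from 128, 122 and 133 CPM to 142 to 159 CPM (median 148), at 0.22 ± 0.07, and stood at −0.01, −0.00265 and −0.07 in the other 3 comparisons. By class, 4 of 13 H2B genes fell on soft gels with or without LIF, against 26.6% and 28.5% of all genes. On stiff gels 5 of 13 fell with LIF and 6 without, against 27.8% and 27.4% of all genes. On soft gels without LIF 3 H2B genes also rose, against 29% of all genes.

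Among H3 genes, Hist1h3f stood at 315, 308 and 260 CPM on soft gels with LIF and 184, 217 and 174 CPM with PD03, and its log2 fold changes were −0.62 ± 0.08, −0.53 ± 0.06, −0.76 ± 0.08 and −0.84 ± 0.08. Hist1h3e (chr13:23561534-23562369), the H3 gene next in level, stood at 254, 237 and 173 CPM and 197, 232 and 227 CPM, and on stiff gels at 190, 177 and 193 CPM and 184, 178 and 183 CPM. Its libraries overlapped in all 4 comparisons and it was called in none, at −0.02 ± 0.09, −0.13 ± 0.08, −0.04 ± 0.10 and −0.19 ± 0.09. Hist1h3h (chr13:21717659-21718069) rose on soft gels with LIF, from 21.9, 21.5 and 18.4 CPM to 26.95, 26.5 and 31.3 CPM, at a log2 fold change of 0.45 ± 0.11 (edgeR adjusted p = 4.91e-04). On soft gels without LIF it changed by −0.27 ± 0.09, from 22.9, 24.3 and 25.95 CPM to 17.5 to 22.6 CPM (median 20.2). On stiff gels with LIF it was also called lower, at −0.31 ± 0.11, from a mean of 21.7 to 17.4 CPM, and without LIF it stood at −0.11 ± 0.11. Only 6.08% of its 50-base windows were unique, with the others shared mainly with Hist1h3i. Among H4 genes, 7, 4, 7 and 9 of 13 fell in the 4 comparisons, against 26.6%, 28.5%, 27.8% and 27.4% of all genes. Hist1h4a, the H4 gene with the highest level per kilobase, stood at 451, 502 and 447 CPM on soft gels with LIF and 377, 500 and 366 CPM with PD03, which overlapped, and passed the test only on stiff gels without LIF at −0.34 ± 0.09. Hist1h4d stood at 736, 709 and 597 CPM and at 483, 523 and 284 CPM, and passed the test in 3 comparisons at −0.66 ± 0.14, −0.35 ± 0.14 and −0.55 ± 0.14, with −0.11 ± 0.12 on soft gels without LIF.

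**Figure D3:**
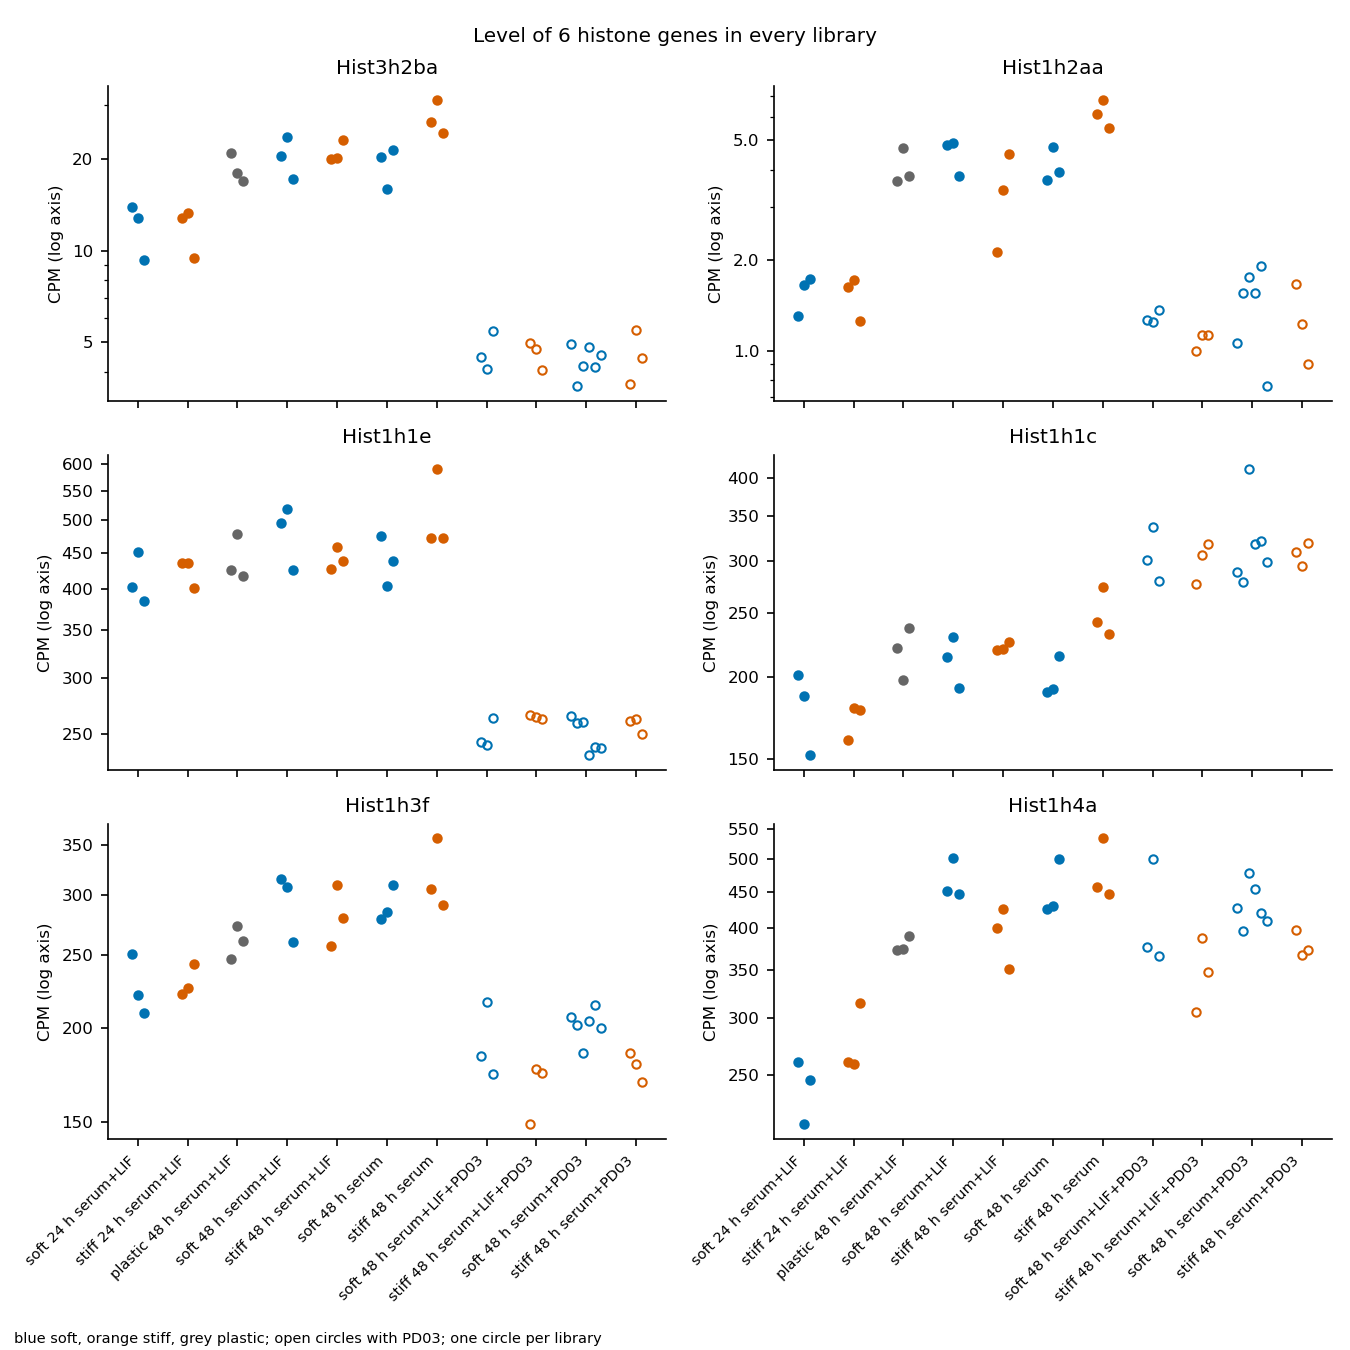
CPM on log axes of 6 histone genes in every library (circles) of the 11 groups, in blue for soft, orange for stiff and grey for plastic, open with PD03. Among the 48 h groups Hist3h2ba, Hist1h2aa, Hist1h1e and Hist1h3f are lower and Hist1h1c is higher in the open circles. At 24 h Hist1h2aa has means of 1.56 and 1.53 CPM on soft and stiff gels, against 1.08 to 1.43 CPM with PD03. Hist1h4a is lowest at 24 h.

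The 17 members that fell in all 4 comparisons were spread over the classes, with 4 of 6 H1 genes, 4 of 15 H2A genes, 3 of 13 H2B genes, 2 of 10 H3 genes and 4 of 13 H4 genes. They made up 5 of the 6 members outside chromosome 13 and 12 of the 51 on it. A stem-loop in the annotated transcript was found in 10 of them, out of 38 members with one, and was not found in 7, out of 19. Of the 30 members with at least 50% unique windows 13 fell in all 4, and of the 27 with fewer 4 did. Of the 12 members called in none of the 4 comparisons 9 were among these 27, and the part that shared reads have in this was not tested.

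The summed level of the members was 6524 ± 621 CPM (SD, n = 3) on soft gels in serum + LIF and 5089 ± 233 CPM with PD03, a change of −22.0%. It changed by −7.87% on soft gels without LIF, where the libraries overlapped, and by −18.5% and −26.9% on stiff gels, where they did not. Without Hist1h4h these changes were −20.8%, −10.2%, −20.0% and −26.6%. No test was run on these sums.

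**Figure D4:**
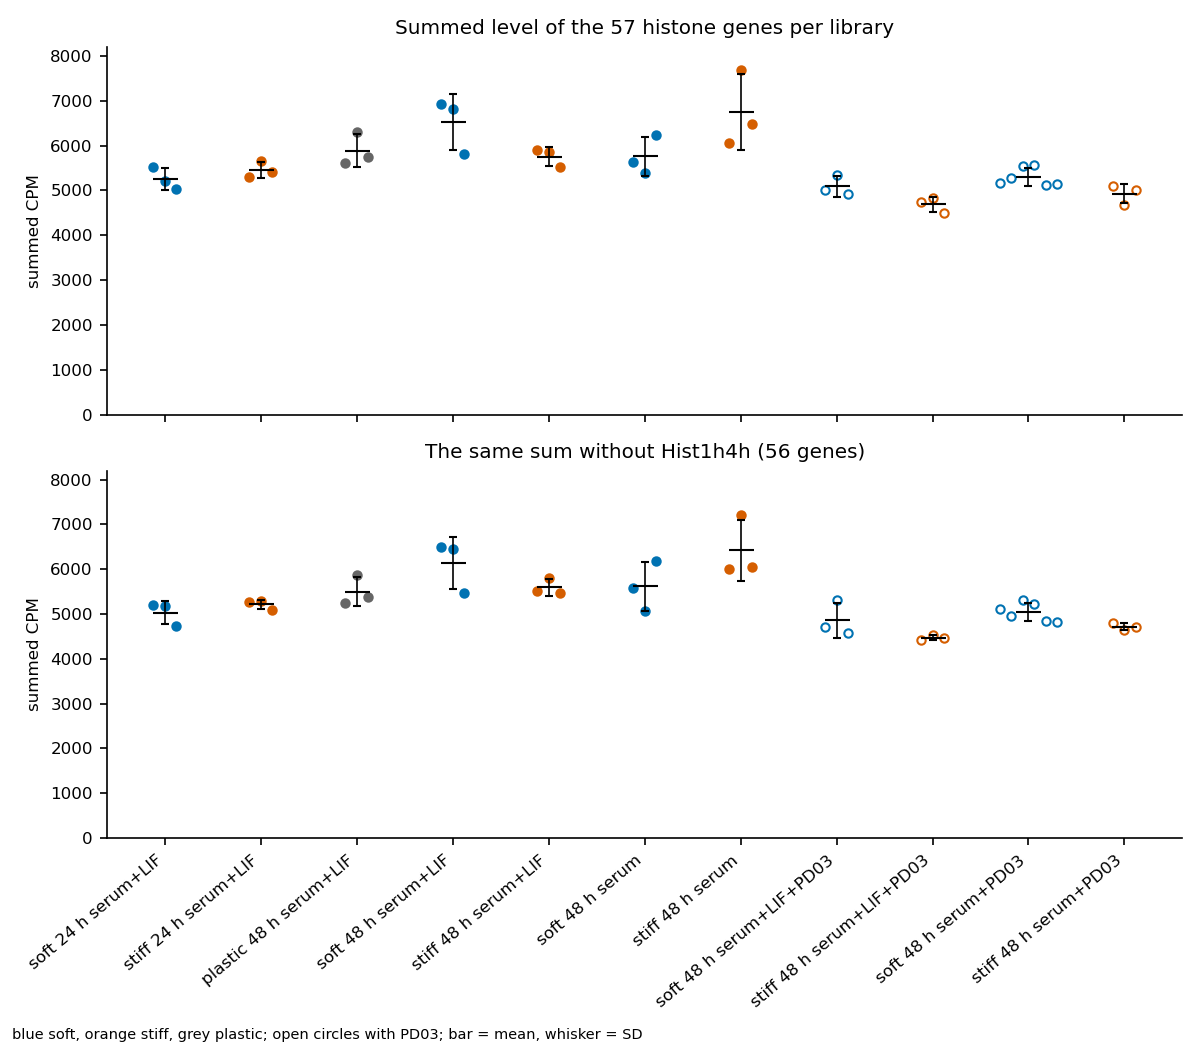
Summed CPM of the 57 histone genes (upper panel) and of the same genes without Hist1h4h (lower panel) for each library (circles), with the group mean (bar) and SD (whisker), in blue for soft, orange for stiff and grey for plastic, open with PD03. Group means ran from 4692 CPM on stiff gels in serum + LIF + PD03 to 6740 CPM on stiff gels in serum.

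The genes that act with histone synthesis were followed through 5 lists drawn from textbook knowledge, all of whose genes were tested. Over all genes 26.6% to 28.5% fell and 27.8% to 29% rose with PD03. Of 26 S phase genes, 16, 13, 19 and 18 fell and 2, 4, 2 and 3 rose with PD03 in the order above. Their median log2 fold changes lay between −0.10 and −0.20. Ccne1, the cyclin E that activates NPAT through its kinase, changed by −0.80 ± 0.05, −0.65 ± 0.04, −0.74 ± 0.05 and −0.93 ± 0.05 on the log2 scale, and Ccne2 by −0.85 ± 0.10, −0.78 ± 0.08, −0.82 ± 0.10 and −0.99 ± 0.10. Of 15 histone chaperones and assembly factors 11, 12, 11 and 12 fell. Among these Nasp, which binds H1 and H3-H4, changed by −0.69 ± 0.05 on soft gels with LIF, and Hira and Asf1a, which hand over H3-H4, changed by −0.62 ± 0.08 and −0.60 ± 0.07.

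Of 15 factors of histone mRNA processing and transcription, 8, 8, 8 and 9 fell and 3 rose in each comparison. Slbp changed by −0.44 ± 0.05, −0.38 ± 0.05, −0.50 ± 0.05 and −0.43 ± 0.05, and Zfp473, a zinc finger protein of the U7 complex, by −0.51 to −0.54. Tut7, a terminal uridyltransferase, rose by 0.45 ± 0.07 on soft gels with LIF, and Npat itself passed the test only on stiff gels without LIF, at −0.21 ± 0.05. In the G2/M list more genes rose than fell, with 5, 9, 5 and 6 of 13 genes higher and 1, 0, 1 and 1 lower. Over all genes 27.8% to 29% were higher. Ccnb2, a mitotic cyclin, rose by 0.45 ± 0.06 and Cdk1, its kinase, by 0.39 ± 0.05 on soft gels with LIF. Of 11 replication-independent histone genes, which are expressed outside S phase too, 6, 6, 5 and 6 rose and 2, 2, 2 and 3 fell. The linker variant H1f0 rose by 1.34 ± 0.09 and macroH2A genes H2afy and H2afy2 by 1.02 ± 0.06 and 0.93 ± 0.08 on soft gels with LIF, whereas H2afz, the H2A.Z gene, changed by −0.60 ± 0.06. The summed trophoblast markers Cdx2, Eomes, Elf5, Hand1 and Tfap2c were also higher with PD03, at 134 to 207 CPM against 55 to 79 CPM, while Elf5 lay at 0 to 0.861 CPM in all libraries. Of these 5 genes 4, 4, 3 and 4 were called higher and 1 lower in each comparison. Of 6 primitive endoderm markers (Gata6, Gata4, Sox17, Pdgfra, Sox7 and Foxa2) 3, 3, 4 and 2 were called lower and 0, 0, 1 and 1 higher, with median log2 fold changes of −0.59, −0.32, −0.84 and −0.15. Of the 7 stem cell markers 4, 4, 2 and 3 were called higher and 2 lower in each comparison. Of the 5 tested fibroblast markers 2, 3, 3 and 3 were called higher and 2, 1, 2 and 2 lower. The part of such cells in the histone values was not tested.

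**Figure D5:**
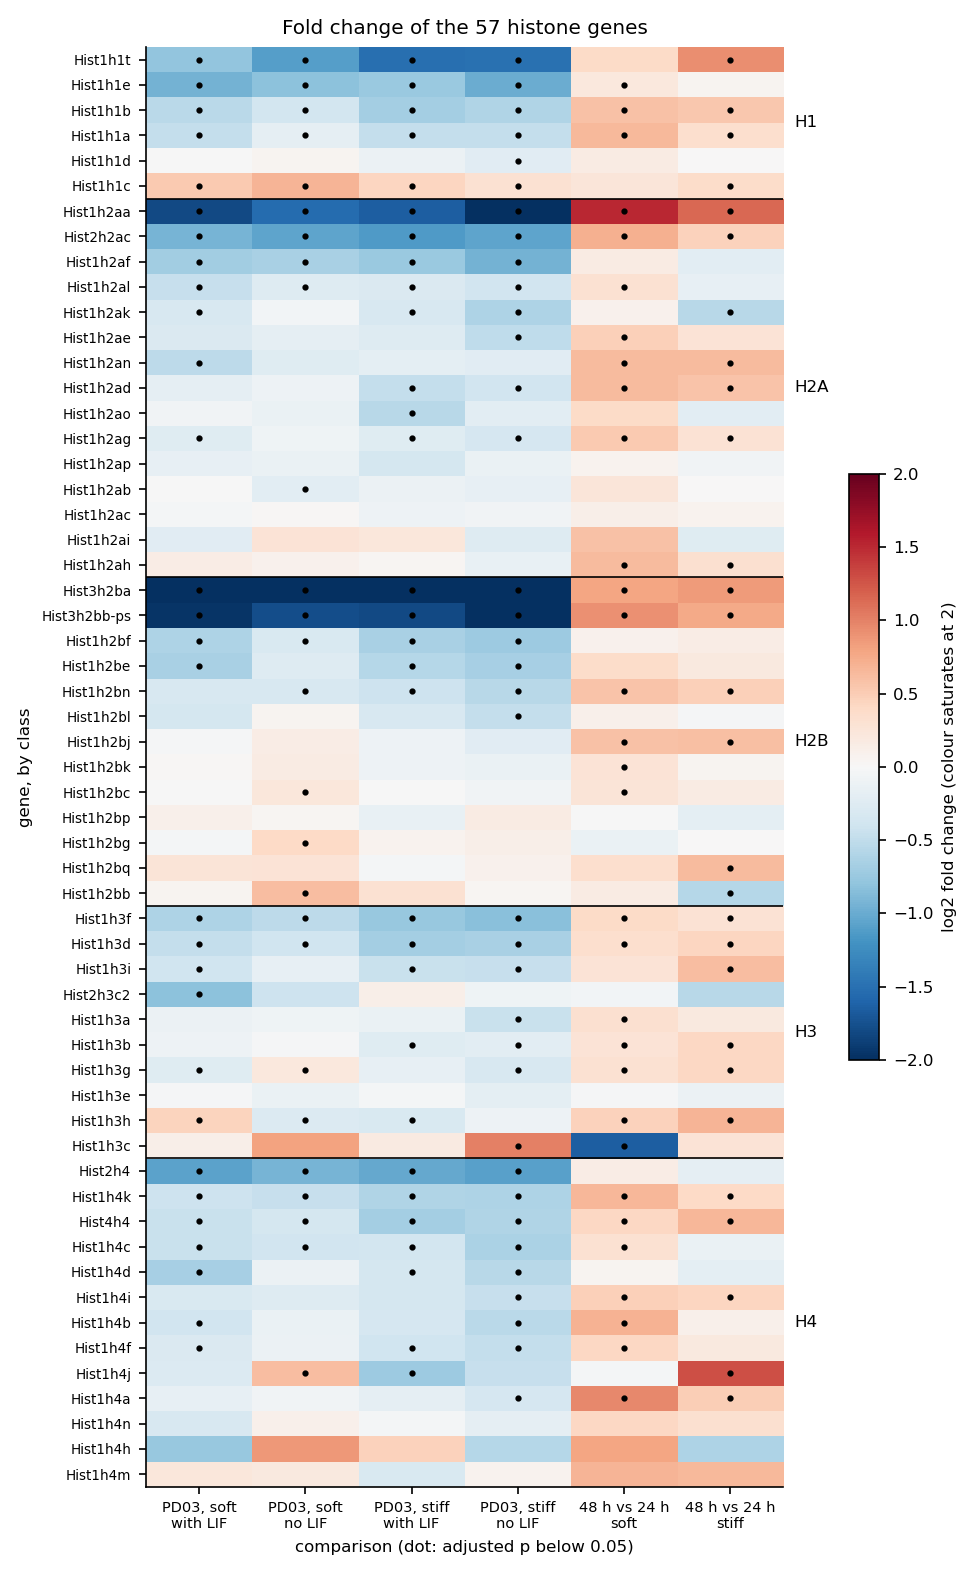
Log2 fold change of each of the 57 histone genes (rows, by class) for PD03 in 4 settings and for 48 h against 24 h on both gels (columns), with red for higher, blue for lower and a dot where the adjusted p was below 0.05. The 4 PD03 columns are mostly blue, and the time columns are mostly red. Only Hist1h1c is called higher in all 4 PD03 columns, while on soft gels without LIF 19 members are positive and 6 called higher.

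Time in culture was compared in serum + LIF. At 48 h, 30 members were higher and 1 lower than at 24 h on soft gels, and 26 were higher and 2 lower on stiff gels, whereas 12.9% and 12.6% of all genes were higher and 11.4% and 13% lower. The median log2 fold change of the members was 0.34 on soft and 0.27 on stiff gels, against −0.03 and −0.01 over all genes. On both gels 21 members (36.8%) were higher at 48 h, against 8.28% of all genes, and 0 were lower, against 6.93%. On soft gels every 24 h library was in the first pool and every 48 h library in the third, so that time and pool cannot be told apart there. On stiff gels 1 of the 3 libraries at 48 h was in the pool of the 24 h libraries. With a pool term, over the 45 ways in which the mixed groups could be divided, between 1 and 12 members were called on soft gels and between 14 and 24 on stiff gels.

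Hist1h4a stood at 260, 213 and 246 CPM at 24 h and 451, 502 and 447 CPM at 48 h on soft gels, a log2 fold change of 0.96 ± 0.09 (edgeR adjusted p = 1.43e-11). On stiff gels it stood at 261, 259 and 315 CPM and at 400, 426 and 351 CPM, and rose by 0.49 ± 0.09. Its libraries at 24 h were below all at 48 h on both gels. Hist1h2aa stood at 1.31, 1.65 and 1.73 CPM at 24 h and 4.83, 4.89 and 3.79 CPM at 48 h on soft gels, at 1.51 ± 0.26, and at 1.16 ± 0.25 on stiff gels. Hist3h2ba, whose level was 13.9, 12.8 and 9.31 CPM at 24 h on soft gels, rose by 0.79 ± 0.14 there and by 0.84 ± 0.14 on stiff gels. Hist3h2bb-ps, which shares windows with it, rose by 0.91 ± 0.16 and 0.76 ± 0.14. Among linker histone genes, Hist1h1a was higher by 0.65 ± 0.10 and 0.34 ± 0.09 and Hist1h1b by 0.58 ± 0.07 and 0.54 ± 0.07. Hist1h4j rose on stiff gels by 1.28 ± 0.28, from 2.57, 3.48 and 3.25 CPM to 5.19, 7.79 and 9.42 CPM, and stood at −0.03 ± 0.28 on soft gels. Hist1h1t rose by 0.92 ± 0.28 on stiff gels, where it did not reach the threshold with a pool term, at 0.87 to 1.01 on the log2 scale over the assignments of lowest and highest p.

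Few members were lower at 48 h. Hist1h2ak fell on stiff gels, from 521, 421 and 363 CPM to 298, 303 and 291 CPM, at a log2 fold change of −0.55 ± 0.11 (edgeR adjusted p = 2.13e-04), and stood at 0.09 ± 0.12 on soft gels. Hist1h2bb fell on stiff gels from 84.2, 59.8 and 88.1 CPM to 53.2, 48.5 and 55.3 CPM, at −0.56 ± 0.18. That call was lost without library 1 or 3 at 24 h or library 2 at 48 h, at −0.50, −0.46 and −0.51. Hist1h3c fell on soft gels at −1.65 ± 0.41, from 61.2, 17.5 and 57.6 CPM to 14.5, 15.6 and 13.1 CPM, and 2 of its 3 libraries at 24 h were at the upper of its separate levels. The summed level of the members was 24.1% higher at 48 h on soft gels, with no overlap of libraries, and 5.52% higher on stiff gels, where they overlapped. Without Hist1h4h the differences were 21.9% and 7.35%, and then the stiff libraries no longer overlapped.

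Of the S phase genes more rose than fell over time, with 15 of 26 genes higher and 0 lower on soft gels and 13 higher and 1 lower on stiff gels. Over all genes 12.9% and 12.6% were higher and 11.4% and 13% lower. Rrm2, a subunit of the reductase that makes deoxyribonucleotides, rose by 0.36 ± 0.07 and 0.41 ± 0.07, and Pcna, the polymerase clamp, by 0.35 ± 0.06 and 0.31 ± 0.06. Of the chaperones 9 rose and 2 fell on each gel, and Nasp rose by 0.38 ± 0.05 and 0.26 ± 0.05. Of the processing factors 6 rose and 1 fell on soft gels and 5 rose and 1 fell on stiff gels. Of the G2/M genes 7 rose and 0 fell on soft gels, and 4 rose and 2 fell on stiff gels. The replication-independent gene H2afz rose by 0.62 ± 0.06 and 0.54 ± 0.06, within a list of which 5 rose and 1 fell on soft gels and 4 rose on stiff gels.

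Substrate stiffness was compared at 24 h and in 4 media at 48 h, and few members were called after the filter on low counts. The 5 counts were 1, 0, 7, 2 and 6 with it and 9, 13, 25, 12 and 16 without it, and the cause was not tested. Shares of all genes below are those with the filter, and the share without it is not given here. In serum alone and in serum + LIF + PD03 every soft library was in the third pool and every stiff library in the second, so that substrate and pool cannot be told apart there. Of the 7 stem cell markers 3, 0, 5, 5 and 5 were called higher on soft gels in the 5 comparisons, and 0 lower. Fibroblast markers (Col1a1, Col1a2, Thy1, Twist1, Twist2 and Postn) summed to 24.3 to 43.6 CPM on soft and 35.4 to 92.3 CPM on stiff gels, with no overlap of soft and stiff libraries within a medium and time. Twist2 and Postn were at 0 in some libraries, Col1a1 was at 9.75 CPM or more in all, and their part in these results was not tested. At 24 h in serum + LIF, where both gels were in the same pool, only Hist1h3c was called, higher on soft gels at 1.28 ± 0.38 with overlapping libraries (edgeR adjusted p = 0.0493), while 1.03% of all genes were higher and 2.52% lower. Soft libraries 1 and 3 were at the upper level of Hist1h3c, and soft library 2 and all 3 stiff libraries were at the lower. With libraries left out, 0 members were called without stiff library 1 or soft library 1, 2 without stiff library 2 and 3 without soft library 3. At 48 h in serum + LIF 0 members were called by edgeR or by DESeq2, against 0.78% of all genes called by edgeR. At an unadjusted edgeR p below 0.05 there were 8 of the 57 members and 1929 of the 17702 genes. By edgeR 13 members were called there without the filter on low counts and 2 when only the groups compared were fitted. In that comparison 1 member was called without stiff library 2 and 3 without soft library 3, all higher on soft gels.

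In serum alone 7 members were lower on soft than on stiff gels and 0 higher, against 2.77% and 2.08% of all genes. Hist1h3g (chr13:23535422-23535951) stood at 91.5, 77.6 and 80.5 CPM on soft gels and 110, 124 and 112 CPM on stiff gels, at a log2 fold change of −0.47 ± 0.08 (edgeR adjusted p = 4.08e-05). Hist3h2ba was lower by −0.51 ± 0.13, from the values given above, and Hist1h2bg by −0.40 ± 0.11, with 142, 129 and 136 CPM on soft gels against 154, 232 and 151 CPM on stiff gels. The other 4 were Hist1h1c, Hist1h1e, Hist1h2bf and Hist1h4f, at −0.33, −0.22, −0.32 and −0.28. Stiff library 2 stood highest for Hist1h1e, Hist1h1c and Hist1h2bg, and without it 1 member was called. Without soft library 2, 2 members were called. Hist3h2ba was not called without either of these libraries (−0.40 and −0.39), nor Hist1h2bg without stiff library 2 (−0.16), soft library 2 (−0.37) or soft library 3 (−0.40).

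In the media with PD03 the few calls were higher on soft gels. In serum + PD03 2 members (3.51%) were higher on soft gels and 0 lower, against 2.13% and 3.42% of all genes. Hist1h1a stood at 88.8 to 140 CPM on soft gels (median 93.3) and 76.7, 83.4 and 77.3 CPM on stiff gels, at 0.34 ± 0.08, and Hist1h2bk at 99.7 to 140 CPM (median 103) and 86.8, 88.5 and 91.1 CPM, at 0.29 on the log2 scale. The upper value of both was that of soft library 3, without which Hist1h1a stood at 0.22 and was still called, and Hist1h2bk was not, at 0.21. Hist1h2bk was also lost without any 1 of the 3 stiff libraries, at 0.28 to 0.31, and both were lost without stiff library 1, where Hist1h1a stood at 0.32. The count without stiff library 2 or 3 was 1.

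In serum + LIF + PD03 6 members were higher on soft gels and 0 lower, against 2.8% and 4.82% of all genes. Hist1h3h stood at 26.95, 26.5 and 31.3 CPM on soft and 15.002, 18.4 and 18.8 CPM on stiff gels, at 0.69 ± 0.11 (edgeR adjusted p = 6.42e-06). Hist1h2ao stood at 6.17, 6.73 and 9.21 CPM against 4.87, 4.67 and 3.34 CPM, at 0.78, and Hist1h2ab was higher by 0.42. Hist1h1b, Hist1h4k and Hist2h2ac were the other 3, at 0.25, 0.27 and 0.40. Without stiff library 3 or soft library 2, 3 members were called. Hist1h2ao and Hist1h2ab were lost without stiff library 3 (0.62 and 0.31) or soft library 3 (0.59 and 0.38). With a pool term between 0 and 9 members were called. The summed level of the members was higher on soft gels by 7.60% with PD03 and by 8.47% with LIF and PD03, and in neither did the libraries overlap. Without PD03 it differed by 13.4% in serum + LIF and −14.6% in serum at 48 h, and by −3.62% at 24 h, all with overlapping libraries.

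Plastic was compared with the gels in serum + LIF at 48 h, where plastic was in the first pool. On soft gels 4 members were higher than on plastic and 0 lower, against 5.29% and 6.47% of all genes, and 21 were called without the filter on low counts. The shares of all genes in these comparisons are those with the filter. Primitive endoderm markers were higher than on plastic too, with 3 of 6 called on soft and 4 of 6 on stiff gels at median log2 fold changes of 0.87 and 0.71. Of 5 tested fibroblast markers 2 were called lower and 1 higher on each gel, with medians of −1.60 and −1.34, and the part of such cells was not tested. The 4 histone genes higher on soft gels than on plastic were Hist1h1b, Hist1h2ab, Hist1h4a and Hist1h1a. Hist1h1b rose by 0.33 ± 0.07, from 90.7, 81.4 and 90.7 CPM on plastic to 120, 109 and 102 CPM. Hist1h2ab stood at 0.33, Hist1h4a at 0.30 ± 0.09 and Hist1h1a at 0.29 ± 0.09. The count was 1 without plastic library 1 or soft library 2, 2 without soft library 1, 7 without plastic library 2 and 14 without soft library 3. Hist1h2ab lost its call without any 1 of plastic libraries 1 and 2 or soft libraries 1 and 2, at 0.26 to 0.38, and Hist1h4a without plastic library 1 or 2 or soft library 2, at 0.25 to 0.30. With a pool term Hist1h4a stood at −0.00286 under the assignment with the largest adjusted p. On stiff gels only Hist1h1b was higher than on plastic, at 0.22 ± 0.07 (edgeR adjusted p = 0.0483), against 1.95% of all genes higher and 3.59% lower, and 7 members were called without the filter. That call was lost without any 1 of the 6 libraries compared, at 0.17 to 0.25.

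Few members were called for LIF after the filter on low counts. Without it 6 and 7 members were called on soft gels without and with PD03, and 25 and 1 on stiff gels, against 0, 1, 1 and 0. The shares of all genes below are those with the filter, and the share without it is not given here. On soft gels 0 members were called without PD03 by edgeR or DESeq2, against 0.0169% of all genes called by edgeR. At an unadjusted edgeR p below 0.05 there were 6 of the 57 members and 1345 of the 17702 genes. With PD03 only Hist1h3h was called, higher with LIF at 0.49 ± 0.09 (edgeR adjusted p = 0.00887), against 0.107% of all genes called in either direction, and the call was lost without soft serum + LIF + PD03 library 3, at 0.41. On stiff gels without PD03 Hist1h2aa was lower with LIF, at 2.13, 3.41 and 4.50 CPM against 6.13, 6.79 and 5.48 CPM, a log2 fold change of −0.85 ± 0.22, against 1.41% of all genes called in either direction. It was lost without serum + LIF library 1 or 2 (−0.63 and −0.86) or serum library 1 or 2 (−0.87 and −0.78), and 3 members were called without serum library 3. The summed level of the members on stiff gels without PD03 differed by −14.6% with LIF, with no overlap of libraries, and by −12.8% without Hist1h4h. In stiff serum the sums were 6052, 7686 and 6483 CPM in libraries 1 to 3. On soft gels without PD03 the summed level differed by 13.3% with LIF, in the other direction and with overlapping libraries. With PD03 on stiff gels 0 members were called by either tool, against 0.514% of all genes called by edgeR. At an unadjusted edgeR p below 0.05 there were 4 of the 57 members and 1533 of the 17702 genes.

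The difference between the stiffness effects with and without PD03 was tested as an interaction. With LIF, Hist1h3h alone passed, at 0.76 ± 0.16 (edgeR adjusted p = 0.00389), against 1.07% of all genes called in either direction. It stood at −0.07 ± 0.12 between gels without PD03, short of the threshold, and was higher on soft gels with it, as above. Without LIF, Hist1h3g passed at 0.53 ± 0.10 (edgeR adjusted p = 0.00404) and Hist1h2bf (chr13:23573736-23574196) at 0.42 ± 0.10 (0.0341), against 0.797% of all genes called in either direction. The sign was positive in 50 of the 57 members, at a median of 0.28 against 0.000423 over all genes. The share of all genes with a positive sign is not given here. The members rest on the same libraries, so that their signs are not independent. Without stiff serum library 2, which had the highest summed level (7686 against 6052 and 6483 CPM), 1 member was called. Without the filter on low counts 3 and 23 members were called in the 2 interactions, and the share of all genes without it is not given here. Hist1h3g stood at −0.47 ± 0.08 between gels in serum and at 0.06 ± 0.07 in serum + PD03, where the levels were 91.7 to 102 CPM (median 95.4) on soft and 86.1, 97.9 and 92.2 CPM on stiff gels. Hist1h2bf stood at 124, 121 and 118 CPM on soft and 142, 171 and 139 CPM on stiff gels in serum, and at 84.7 to 113 CPM (median 97.0) and 89.9, 91.6 and 93.1 CPM with PD03. The call of Hist1h2bf was lost, at 0.30 to 0.43, without any 1 of serum soft libraries 1 to 3, serum stiff library 2, serum + PD03 stiff libraries 1 to 3 or serum + PD03 soft libraries 1, 3 and 4.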

How the data were processed

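The cells were lysed at the end of culture, and libraries were prepared from the RNA with a NuGen kit, per the labels. Whether that kit selected poly(A) RNA is not given in the sources used here, and mature histone mRNAs lack such a tail. The authors aligned reads to GRCm38 (mm10) with STAR 2.5.2a, counted them per Ensembl gene with htseq-count and deposited raw counts as whole numbers. Whether counting used strand, and what became of reads with several matches, is not given in the sources used here. Columns name the group only, and all were used.

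Counts were analysed with edgeR 4.0.16 in R 4.3.3. After filterByExpr by group, 17702 genes (99.92% of counts) were scaled by TMM and fitted in 1 quasi-likelihood model over all 36 libraries with a coefficient per group. Each comparison was a contrast, and p-values were adjusted over the 17702 genes by Benjamini-Hochberg, with a threshold of 0.05. A ± after a fold change is the standard error of the fit. Total counts per library set the precision of low genes, and reads are not independent molecules. Alternatives were RLE size factors, no filter, only the groups compared, DESeq2 1.42.0, a pool term over 45 assignments and leaving out each library. In 45 pairs of libraries of 1 group the chi-square per gene was 2.22 to 13.4, so that none was a duplicate. On simulated counts for soft against stiff gels at 48 h in serum + LIF (17163 genes), the fit recovered 100%, 93.9% and 66.7% of genes changed by 2, 1 and 0.5 on the log2 scale, with 5.95% false calls.

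Members named were the 2 with the highest mean CPM per class and, per comparison, up to 3 per direction with the largest change, past the threshold and with no overlap of libraries. Per interaction, the 3 with the smallest p past the threshold were taken. From the 5 other lists, up to 3 genes past the threshold with the largest change were eligible, and Slbp and Npat were named for their role. The members and lists were chosen with earlier results of these data known. Coordinates, transcripts and 50-base windows come from GENCODE M21, and promoters from RefSeq.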

Additional observations from a re-analysis of the deposited data

Results flagged for a closer look

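In the 6 libraries on soft gels in serum + PD03, library 3 stood far above the others for several genes. Hist1h1c stood at 413 CPM there, against a median of 308 CPM over the group, Hist1h1a at 140 against 93.3 CPM, Hist1h2bk at 140 against 103 CPM and Hist1h2bb at 152 against 67.2 CPM. The summed level was 1150 against 966 CPM for H1 genes and 977 against 722 CPM for H2B genes. In all 31 sets of values were examined in this way, all from this group, since groups of 3 libraries were not examined. Chance alone gives such a library in about 1 of 20 sets. These 6 are not independent, since the sums contain the 4 genes and all come from 1 library, so that their number cannot be read against that rate. The cause was not tested.

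The stiffness effect differed with PD03 by the interaction test for 3 genes. The difference of log2 fold changes was 0.764 for Hist1h3h with LIF, and 0.531 for Hist1h3g and 0.42 for Hist1h2bf without LIF.

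In other pairs of comparisons the libraries of soft and stiff gels did not overlap but lay in opposite directions, and these differences were not tested. Between 24 h and 48 h in serum + LIF, the log2 fold change of soft against stiff gels was −0.328 and 0.312 for Hist1h2ak. For Hist1h2ak the 24 h value was also opposite in sign to 0.271 with PD03 alone. Its 48 h value with LIF was opposite in sign to −0.294 when neither LIF nor PD03 was added. The values with PD03 alone and with neither were compared by the interaction test without LIF, which Hist1h2ak did not pass. Between 24 h in serum + LIF and 48 h in serum, Hist1h1t stood at 0.487 and −0.308 and Hist1h4j at 0.935 and −0.799. Hist1h1a stood at −0.128 at 24 h, against 0.343 with PD03 alone and 0.176 with LIF and PD03 at 48 h. Hist1h1d stood at −0.215 in serum and 0.189 in serum + LIF + PD03, and Hist1h2aa at −0.57 and 0.246.

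Hist1h3h also differed in direction between media. On soft gels PD03 moved it by 0.452 with LIF and −0.274 without, and LIF by −0.24 without PD03 and 0.486 with it. On stiff gels with PD03 the log2 fold change for LIF was −0.209, and these differences were not tested.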

How the results depend on the processing

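No paired analysis was possible because the columns of the count table carry the name of the group and no replicate number. Members called in the 7 substrate comparisons (soft against stiff at 24 h, then at 48 h in serum + LIF, serum, serum + PD03 and serum + LIF + PD03, then soft and stiff against plastic) numbered 1, 0, 7, 2, 6, 4 and 1. Without the filter on low counts they were 9, 13, 25, 12, 16, 21 and 7, with only the groups compared 6, 2, 9, 8, 14, 9 and 5, and with DESeq2 0, 0, 6, 1, 4, 4 and 2. The share of all genes called under the alternatives in this section is not given here. With a pool term they were 0 to 2, 0 to 2, 1 to 5, 0 to 6, 0 to 9, 0 to 4 and 0. Leaving out 1 library gave 0 to 3, 0 to 3, 1 to 10, 0 to 2, 3 to 8, 1 to 14 and 0 to 1. The PD03 counts (29, 26, 30 and 36) were 36, 35, 37 and 42 without the filter, 33, 28, 40 and 40 with only the groups compared, and 26, 23, 27 and 31 with DESeq2. Leaving out 1 library gave 24 to 33, 20 to 29, 23 to 31 and 33 to 38. The LIF counts (0 and 1 on soft gels, 1 and 0 on stiff gels, each without and with PD03) were 6, 7, 25 and 1 without the filter, 1, 1, 5 and 3 with only the groups compared, and 0, 1, 2 and 0 with DESeq2. With a pool term they were 0, 0 to 1, 0 to 1 and 0, and without 1 library 0, 0 to 1, 0 to 3 and 0. The time counts (31 and 28) were 1 to 12 and 14 to 24 with a pool term and 21 to 35 and 23 to 28 without 1 library. The interaction counts with and without LIF (1 and 2) were 3 and 23 without the filter, 1 and 4 with only the groups compared, 1 and 1 to 3 with a pool term, and 1 and 1 to 3 without 1 library. RLE size factors gave 0 for stiff gels against plastic and 2 for LIF on stiff gels without PD03. Against plastic, a pool term reversed soft-gel values that were positive before, to −0.00286 for Hist1h4a, −0.0154 for Chaf1b and −0.00620 for H2afv. With raw totals the summed level was 1037 CPM for H1 and 729 CPM for H2B on plastic and 953 CPM for H1 on stiff gels in serum + PD03. Without Hist1h4h, chosen after its values were seen, the H4 sum moved by more than 1 SD to 1825 CPM on plastic, 1574 and 1693 CPM at 24 h on soft and stiff gels, 2054 CPM on soft gels in serum + LIF, 1519 and 1427 CPM with LIF and PD03, and 1640 and 1526 CPM with PD03 alone. The sum of all members then moved to 5498 CPM on plastic, 5214 CPM on stiff gels at 24 h, 4476 CPM on stiff gels with LIF and PD03, and 5041 and 4713 CPM on soft and stiff gels in serum + PD03. A minimum of 5 CPM would keep 52 members. Beyond the settings that name their own construction, the cause was not tested. For genes of a few CPM the depth limits what could be detected.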
